A study of Homo sapiens with 6 samples.

Results

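The secreted Wnt inhibitors DKK1, DKK3 and SFRP1, the DKK receptor KREMEN1, the ubiquitin ligases RNF43 and ZNRF3, the co-receptors LRP5 and LRP6, the R-spondin receptor LGR4 and the Wnt acyltransferase PORCN were examined in DU145 cells, a human metastatic prostate cancer line. These 10 genes, of 27381 in the deposited table, were picked for their roles in the pathway and selected on earlier results from the same 3 FPKM columns, so their differences are given as descriptions and support no claim. All 10 were found by symbol, all 10 were above 0 in every column, and all 10 passed the minimum of 1 FPKM in at least 1 column that left 12822 genes to compare. SFRP1 passed that minimum only through the CD24 KO column, where it was high, and therefore had to differ.

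RNA-Seq covered 6 libraries, 2 from cells given a scrambled sgRNA (Scr), 2 from cells labelled CD24 KO and 2 from cells labelled RCC2 KO, all made in DU145 with CRISPR/Cas9. The methods describe Scr cells as GFP-sorted clones that received Cas9 with an sgRNA without a target, and knockout clones isolated after transfection with paired sgRNAs, so the values describe clones of 1 cell line. The authors deposited FPKM, in which fragment counts are divided by the length of the transcript and the size of the library, which allows levels to be compared between genes. The table gives 1 value per gene and condition, no SD between libraries exists and no test was possible, and the RCC2 KO column may hold 1 library or both. The depth behind the values is unknown.

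The RNA of the targeted genes did not follow the labels. The paper checked its knockout clones by Western blotting, flow cytometry and Sanger sequencing, which read protein and DNA rather than RNA. CD24 was at 93.2, 309 and 214 FPKM in the columns labelled Scr, CD24 KO and RCC2 KO. RCC2 was at 37.8, 14.2 and 41.8 FPKM in the same order. Each direction given for a knockout below therefore rests on the label of its column. The epithelial markers EPCAM, KRT8, KRT18, KRT19 and CDH1 were present in all columns, with 5 of 5 at least at 23.7 FPKM and summed levels of 799, 500 and 843 FPKM in Scr, CD24 KO and RCC2 KO. KLK3 and KLK2, secreted proteases of luminal prostate cells, were listed at 0 in every column. Levels are means over all cells of a culture, so fewer cells with an RNA and less RNA per cell cannot be told apart.

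Wnt proteins bind a frizzled receptor together with LRP5 or LRP6 at the cell surface, which halts the destruction of β-catenin and lets it act with TCF/LEF factors on target genes. Secreted proteins restrain this step, DKK1 by binding LRP5 and LRP6 and SFRP1 by binding Wnt proteins. RNF43 and ZNRF3 remove frizzled receptors from the surface, R-spondins bound to LGR receptors hold these ligases back, and PORCN attaches the lipid that Wnt proteins need in order to be secreted. DKK1, RNF43 and ZNRF3 are themselves known β-catenin targets in many tissues, so that they act as negative feedback. In prostate cancer, DKK1 is also known for its part in bone metastasis.

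DKK1 was the most abundant of the 10 genes in every column. Scr held 103 FPKM, the column labelled CD24 KO 34.0 FPKM and the column labelled RCC2 KO 112 FPKM. CD24 KO stood alone at the low end, and Scr and RCC2 KO lay close together. The Scr level was 3.01 times the CD24 KO level, a log2 difference of -1.56 for CD24 KO minus Scr on the scale of log2(FPKM + 1), which is used for all differences here and understates those of low values. In the whole comparison 1.18% of the 12822 genes lay at least as far from 0 as DKK1. The RCC2 KO level differed from Scr by 0.13 (log2). Even at its lowest level DKK1 had a higher FPKM than 81.2% of the genes compared, against 94.3% in Scr and 95.0% in RCC2 KO. The promoter of DKK1 is shown because DKK1 is a feedback target and its level differed most among the abundant genes here. RefSeq sequences of GRCh38.p14 hold the bases from 250 before to 50 after a start site. Such sequences were read for 5 of the 10 genes. The plus strand at chr10:52314031-52314330 reads as follows, with matches to CTTTGA or its reverse complement TCAAAG (core letters that TCF/LEF factors recognize) and to TATAAA or its reverse complement in capitals:
DKK1: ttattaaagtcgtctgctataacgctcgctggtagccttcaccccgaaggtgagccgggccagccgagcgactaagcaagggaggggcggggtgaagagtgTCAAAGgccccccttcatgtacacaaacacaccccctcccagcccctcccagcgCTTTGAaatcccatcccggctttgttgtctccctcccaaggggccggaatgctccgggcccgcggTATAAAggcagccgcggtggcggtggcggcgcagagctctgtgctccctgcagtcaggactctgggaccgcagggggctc
This window holds 2 matches to CTTTGA, which do not overlap each other and begin at -149 and -95 from the start site, and 1 match to TATAAA. Of 35116 promoter windows of this length, 12.9% hold at least 1 match to CTTTGA on either strand, 1.29% at least 2 and 11.5% at least 1 match to TATAAA. A match describes letters only, and no binding was measured.

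SFRP1, a secreted frizzled-related protein, was highest in CD24 KO, where DKK1 was lowest. It was at 0.329 FPKM in Scr and 0.550 FPKM in the column labelled RCC2 KO, against 10.6 FPKM in the column labelled CD24 KO. The CD24 KO level was 32.2 times the Scr level as a plain ratio of FPKM, and the log2 difference was 3.13 (4.64 with a pseudocount of 0.1 and 1.55 with a pseudocount of 5). Scr and RCC2 KO lay below 1 FPKM together, so the size of the plain ratio rests on a low value of unknown depth. Among the 12737 genes above 0 in every column, SFRP1 ranked 5 from the top for CD24 KO minus Scr and 4 from the bottom for RCC2 KO minus CD24 KO, where its log2 difference was -2.90. SFRP1 passed the minimum only through CD24 KO and was chosen with these values known, so nothing is read from these ranks. DKK3, a divergent member of the DKK family, stayed between 5.52 and 7.0 FPKM in the 3 columns. Its log2 differences were -0.09 for CD24 KO minus Scr and -0.29 for RCC2 KO minus Scr. The secreted inhibitors thus differed in opposite directions in CD24 KO. Summed, they reached 110, 51.1 and 118 FPKM in Scr, CD24 KO and RCC2 KO. DKK1 made up 93.3%, 66.5% and 94.9% of these sums, whereas SFRP1 made up 0.30%, 20.7% and 0.465%.

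SFRP1 is also widely made by stromal fibroblasts, so markers of other cell types were read beside it. All 7 stromal markers (COL1A1, COL1A2, COL3A1, DCN, LUM, PDGFRA and PDGFRB) were under the minimum of 1 FPKM in every column. Their summed levels were 0.597, 1.05 and 0.609 FPKM in Scr, CD24 KO and RCC2 KO, with DCN listed at 0 in Scr and CD24 KO and LUM listed at 0 in Scr and RCC2 KO. All 3 endothelial markers were near 0, with sums between 0.145 and 0.190 FPKM. Among B cell and leukocyte markers, CD79A was at 0.793, 37.0 and 1.44 FPKM in Scr, CD24 KO and RCC2 KO, while CD79B, MS4A1 and PTPRC were listed at 0 in CD24 KO. Among epithelial genes, KRT8 and KRT18 had log2 differences of -1.17 and -1.05 for CD24 KO minus Scr, and CDH1 one of 0.89. The column labelled CD24 KO thus differed in epithelial genes as well, and their part in the Wnt values was not tested.

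**Figure D1:**
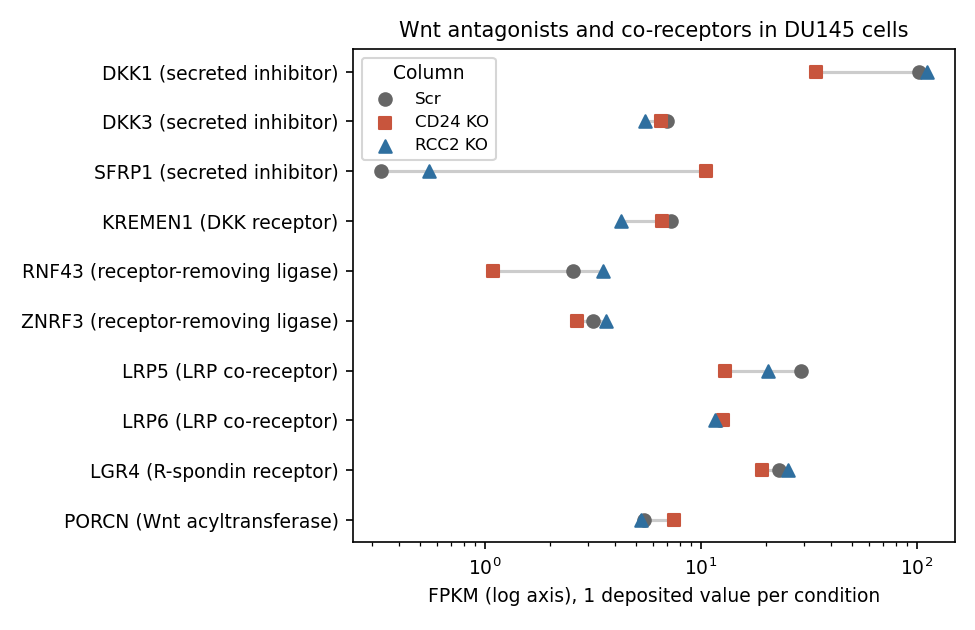
FPKM (log axis) of the 10 genes in the columns labelled Scr (circles), CD24 KO (squares) and RCC2 KO (triangles), with 1 value per condition and a grey line from the lowest to the highest. DKK1 lies at the right in all columns, and SFRP1 spans 0.329 to 10.6 FPKM.

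KREMEN1, a transmembrane protein that binds DKK1 and helps to clear LRP5 and LRP6 from the surface, was lowest in the column labelled RCC2 KO. Scr held 7.29 FPKM, CD24 KO 6.65 FPKM and RCC2 KO 4.28 FPKM. Scr and CD24 KO lay close together, and the log2 difference for RCC2 KO minus Scr was -0.65. Among the 10 genes this was the largest difference in that comparison, where 4.03% of all genes compared lay at least as far from 0.

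The ligases were the least abundant of the 10 genes apart from SFRP1 in Scr and RCC2 KO, and they were the least abundant of all in CD24 KO. For RNF43 the level was 2.55 FPKM in Scr, 1.09 FPKM under the label CD24 KO and 3.53 FPKM under the label RCC2 KO. CD24 KO again held the lowest and RCC2 KO the highest level. The log2 difference was -0.76 for CD24 KO minus Scr, below the 2-fold minimum on this scale, although the Scr FPKM was 2.33 times the CD24 KO FPKM. For RCC2 KO minus CD24 KO it was 1.11, past the minimum. ZNRF3, its paralog, had the same order of columns with smaller steps, at 3.16, 2.67 and 3.62 FPKM in Scr, CD24 KO and RCC2 KO. The log2 differences of ZNRF3 were -0.18 and 0.15 against Scr. Their summed level was 5.71, 3.76 and 7.16 FPKM. ZNRF3 exceeded RNF43 by a factor of 1.24 in Scr, 2.44 in CD24 KO and 1.03 in RCC2 KO. In the table RNF43 shares its position with 5 other genes, among them SUPT4H1, a transcription elongation factor gene at 41.7, 34.1 and 47.5 FPKM, and ZNRF3 with its antisense gene ZNRF3-AS1, which reached at most 0.338 FPKM. How fragments were divided between such genes is not given in the sources used here, and the RNF43 values are less certain for that reason.

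The start sites of RNF43 are shown because RNF43 had, like DKK1, its lowest level in CD24 KO and its highest in RCC2 KO. RefSeq gives it a pair of start sites on the minus strand, at chr17:58417485-58417784 and chr17:58402672-58402971 of GRCh38.p14. Capitals would mark matches to CTTTGA or TATAAA on either strand:
RNF43, first start site: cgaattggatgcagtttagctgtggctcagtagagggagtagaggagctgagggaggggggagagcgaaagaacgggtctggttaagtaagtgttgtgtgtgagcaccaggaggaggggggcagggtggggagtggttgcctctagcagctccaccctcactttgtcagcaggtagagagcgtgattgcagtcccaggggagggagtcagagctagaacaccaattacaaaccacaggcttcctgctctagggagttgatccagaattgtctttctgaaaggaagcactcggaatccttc
RNF43, second start site: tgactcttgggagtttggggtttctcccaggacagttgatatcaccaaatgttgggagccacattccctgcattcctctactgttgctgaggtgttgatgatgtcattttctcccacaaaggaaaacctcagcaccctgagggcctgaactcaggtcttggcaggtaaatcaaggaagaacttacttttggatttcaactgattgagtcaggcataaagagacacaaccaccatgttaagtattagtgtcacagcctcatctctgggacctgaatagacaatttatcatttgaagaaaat
Neither window holds a match to CTTTGA or TATAAA, which says only that these letters are not there. Close variants such as CTTTGT were not marked, and their share of all promoter windows was not counted. CTTTGT or its reverse complement ACAAAG occurs in each RNF43 window and in the DKK1 window, so no contrast is drawn. The G+C content is 54.3% in the first and 43.7% in the second, against a median of 58.7% over all promoter windows. Among windows not shown, that of the second PORCN start site holds 1 match to CTTTGA, at -9. Those of the first PORCN start site and of LGR4 hold none. PORCN was highest in CD24 KO, and LGR4 had the column order of DKK1.

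LRP5 and LRP6, the paralogous co-receptors that bind Wnt proteins and DKK1, differed in behavior. For LRP5, Scr held 29.1 FPKM, the column labelled CD24 KO 12.9 FPKM and the column labelled RCC2 KO 20.4 FPKM. Scr held the highest level and CD24 KO the lowest, with RCC2 KO between them. The log2 differences were -1.12 for CD24 KO minus Scr and -0.49 for RCC2 KO minus Scr. LRP6 stayed between 11.6 and 12.6 FPKM in the 3 columns, with log2 differences of 0.04 and -0.07 against Scr. LRP5 therefore had 2.38 times the FPKM of LRP6 in Scr, 1.02 times in CD24 KO and 1.76 times in RCC2 KO. These ratios are taken within a column and do not depend on how the columns were scaled to each other. LRP5 accounted for 70.4% of the summed LRP level in Scr and 50.6% in CD24 KO. The LRP genes summed to 41.4, 25.5 and 32.05 FPKM in Scr, CD24 KO and RCC2 KO, so that DKK1 had 2.48, 1.33 and 3.50 times the FPKM of its LRP receptors together.

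Genes near LRP5 were mostly lower in CD24 KO as well. Among the 24 compared genes nearest to LRP5 (12 on each side along chromosome 11), 21 were lower and 3 higher in CD24 KO than in Scr, with a median log2 difference of -0.48. For comparison, the median was -0.13 over all 737 compared genes of chromosome 11 and -0.03 over all genes compared. In RCC2 KO minus Scr the neighbors of LRP5 had a median of -0.06. The neighbors of the other 9 genes had medians between -0.16 and 0.25 for CD24 KO minus Scr. For DKK1 and SFRP1 the neighbors were at 0.08 and 0.21, respectively, beside differences of -1.56 and 3.13 for the genes themselves. The part of the shared position in the LRP5 value was not tested. The LRP5 promoter is shown because its letters differ from those of DKK1. LRP5 was, like DKK1, lowest in CD24 KO, and only 12.9% of promoter windows hold CTTTGA, so nothing is read from this difference. The window lies on the plus strand at chr11:68312341-68312640 of GRCh38.p14, and capitals would again mark CTTTGA or TATAAA:
LRP5: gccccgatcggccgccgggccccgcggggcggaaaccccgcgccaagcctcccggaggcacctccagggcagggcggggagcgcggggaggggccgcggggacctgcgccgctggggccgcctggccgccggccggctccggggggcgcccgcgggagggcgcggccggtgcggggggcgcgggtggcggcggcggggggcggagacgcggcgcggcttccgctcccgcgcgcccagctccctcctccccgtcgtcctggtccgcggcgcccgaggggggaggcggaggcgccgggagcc
It holds no match to either motif, 3 matches to GGGCGG (or CCGCCC on the other strand), which 45.0% of promoter windows hold at least once, and 52 CG pairs against a median of 14. Its G+C content of 86.7% was above that of 99.9% of promoter windows.

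LGR4, the receptor through which R-spondins protect frizzled receptors from the ligases, was among the 3 most abundant genes in every column. It was at 23.1, 19.2 and 25.3 FPKM in Scr, CD24 KO and RCC2 KO, which is the column order of DKK1 and the ligases. The log2 differences against Scr were -0.26 and 0.12. LGR4 had 4.06, 5.09 and 3.53 times the summed FPKM of RNF43 and ZNRF3 in Scr, CD24 KO and RCC2 KO. PORCN was at 5.45, 7.48 and 5.31 FPKM in the same order, highest in the column labelled CD24 KO. For PORCN the log2 difference was 0.39 for CD24 KO minus Scr and -0.03 for RCC2 KO minus Scr.

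**Figure D2:**
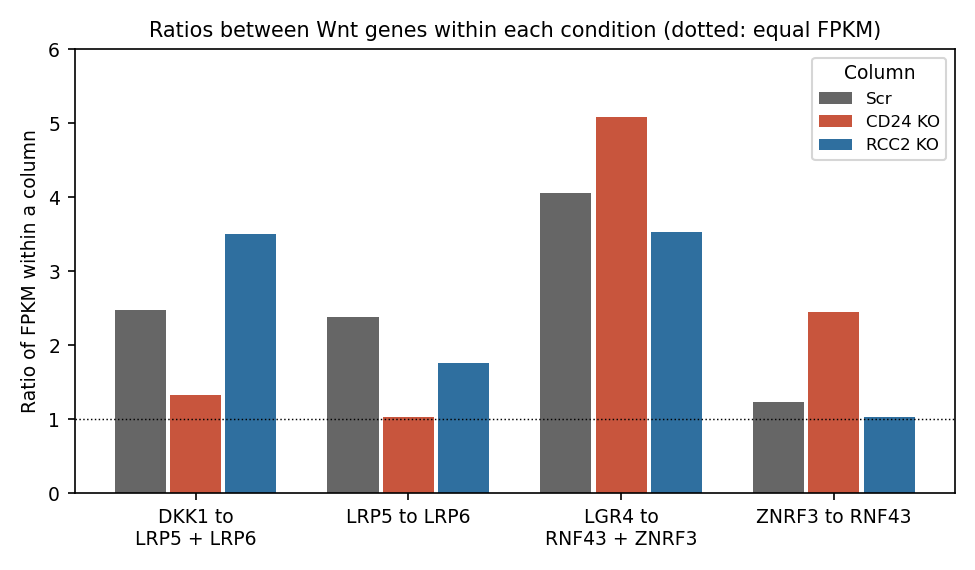
Ratios of FPKM between genes of the set within each column (bars from 0, grey Scr, red CD24 KO, blue RCC2 KO), with 1 value per bar. No error is shown because 1 value per condition was deposited. The LRP5 to LRP6 bar stands at 2.38 in Scr and 1.02 in CD24 KO, while the ZNRF3 to RNF43 bar is highest in CD24 KO at 2.44.

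For CD24 KO minus Scr, SFRP1 was at least 2-fold higher and DKK1 and LRP5 were at least 2-fold lower. Of all genes compared, 2.67% were at least 2-fold higher and 3.03% at least 2-fold lower. LRP5 at -1.12 lay just inside the minimum of 1 on the log2 scale, and RNF43 at -0.76 did not reach it. Counted by sign alone, 7 of the 10 genes were lower and 3 higher (SFRP1, PORCN and LRP6). The median log2 difference of the 10 genes was -0.15, beside -0.03 for all genes compared. For RCC2 KO minus Scr, 0 of the 10 genes differed by at least 2-fold in either direction, beside 0.406% of all genes higher and 0.796% lower. Here 5 genes were higher and 5 lower, the values ran from -0.65 (KREMEN1) to 0.35 (RNF43), and the median was 0.04 against -0.00 for all genes (-0.0036 before rounding). Both comparisons use the same Scr values. A larger share of all genes passed the minimum in CD24 KO than in RCC2 KO. Because the 10 genes were chosen with these values known, nothing is read from their counts of 3 and 0.

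**Figure D3:**
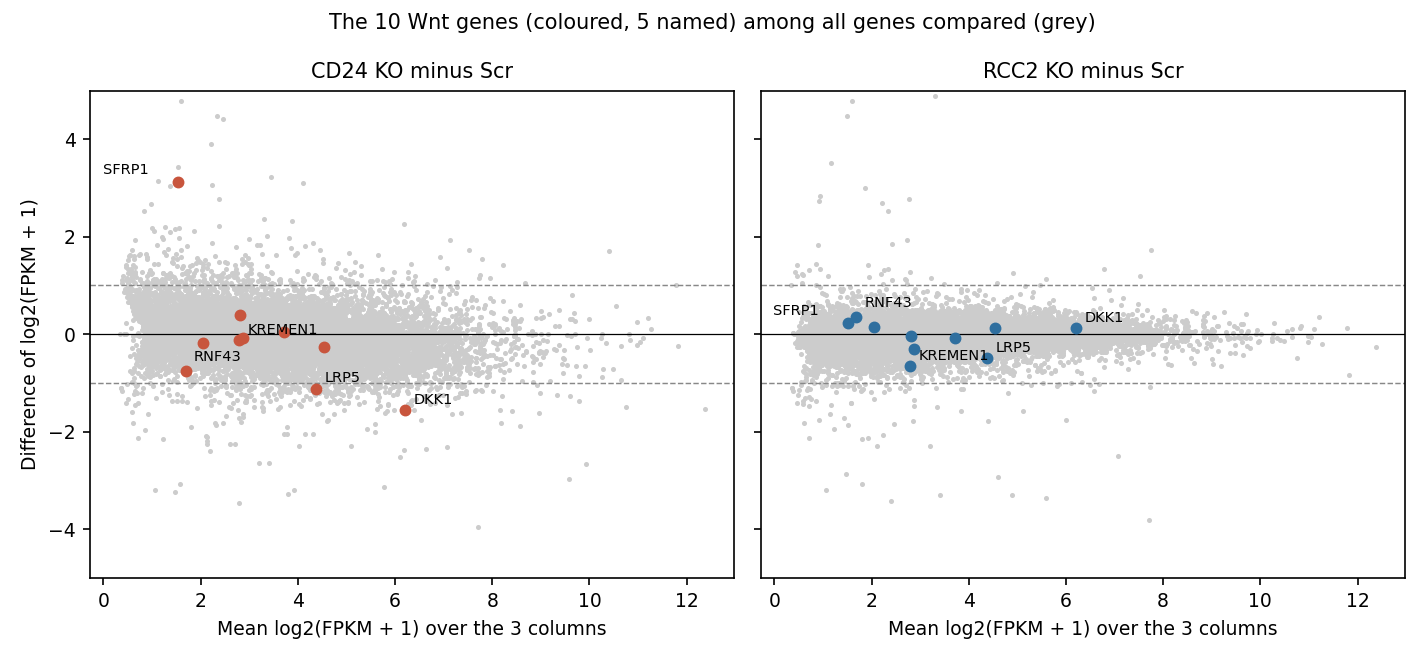
Difference of log2(FPKM + 1) against the mean log2(FPKM + 1) over the 3 columns, for CD24 KO minus Scr (left) and RCC2 KO minus Scr (right). Grey points are the 12822 genes compared (16 on the left and 14 on the right lie beyond the axis), colored points the 10 Wnt genes, and dashed lines 2-fold. SFRP1 lies near the top and DKK1 and LRP5 below the lower line on the left, whereas all 10 lie between the lines on the right.

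The columns labelled RCC2 KO and CD24 KO were also set against each other, which leaves out the Scr values. DKK1 and RNF43 were at least 2-fold higher in RCC2 KO, by log2 differences of 1.69 and 1.11, and SFRP1 was at least 2-fold lower, at -2.90. Among all genes compared, 4.02% were at least 2-fold higher and 4.3% at least 2-fold lower. LRP5 was 0.62 higher, LGR4 0.38 higher and ZNRF3 0.33 higher, whereas KREMEN1 (-0.54), PORCN (-0.43), DKK3 (-0.21) and LRP6 (-0.11) were lower. The median over the 10 genes was 0.11, beside 0.02 over all genes compared. Across the 3 columns, 5 of the 10 genes (DKK1, RNF43, ZNRF3, LRP5 and LGR4) were lowest in CD24 KO and 4 (DKK3, KREMEN1, LRP6 and PORCN) in RCC2 KO. Of 12782 genes with unequal values in the 3 columns, 44.4% were lowest in CD24 KO, 33.4% in RCC2 KO and 22.3% in Scr. The shares among the 10 genes were therefore near those of all genes.

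**Figure D4:**
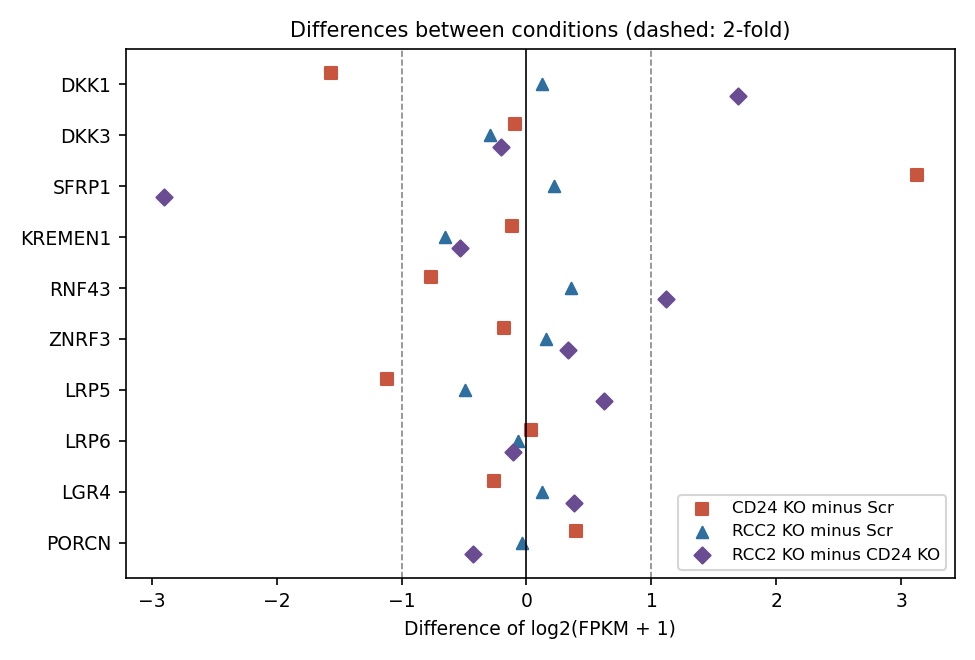
Differences of log2(FPKM + 1) for each of the 10 genes, for CD24 KO minus Scr (squares), RCC2 KO minus Scr (triangles) and RCC2 KO minus CD24 KO (diamonds), with 1 value each and dashed lines at 2-fold. DKK1 and SFRP1 lie on opposite sides in CD24 KO minus Scr, at -1.56 and 3.13, and no triangle passes a dashed line.

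Summed over all 10 genes, the level was 193, 114 and 192 FPKM in Scr, CD24 KO and RCC2 KO. Without DKK1 the sums were 90.3, 79.7 and 80.1 FPKM, so DKK1 carried most of the gap between CD24 KO and the other columns. The columns themselves differed in total, at 451272, 388764 and 447005 FPKM over all genes in Scr, CD24 KO and RCC2 KO. Small gaps between sums are therefore not read. The upper end of the order of levels was shared by all columns, with DKK1 first, LRP5 and LGR4 in the next places and LRP6 in place 4. LRP5 and LGR4 exchanged places between Scr and both knockout columns. The clearest move in rank was that of SFRP1, from place 10 in Scr and RCC2 KO to place 5 in CD24 KO.

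Other inhibitors of the pathway were mostly low. Of 17 further antagonists, 6 were listed at 0 in every column and 4 reached the 1 FPKM needed for a comparison. TPBG, a membrane protein that dampens Wnt signaling, was the most abundant at 15.7, 23.2 and 15.3 FPKM in Scr, CD24 KO and RCC2 KO. For CD24 KO minus Scr none of the 4 differed by at least 2-fold, and the median log2 difference was 0.23. For RCC2 KO minus Scr 1 of the 4 was at least 2-fold lower, beside 0.796% of all genes compared. The median of -0.30 became 0.11 where each column had to reach 1 FPKM. That filter left 2 genes and took out those with the lowest differences, the gene past 2-fold among them. The lower gene was DKKL1, a gene related to DKK3, with a log2 difference of -1.12. It was at 3.08, 2.92 and 0.875 FPKM in Scr, CD24 KO and RCC2 KO.

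Of 14 further co-receptors, R-spondins and helpers, 7 were compared. For CD24 KO minus Scr 2 were at least 2-fold lower and 1 at least 2-fold higher, beside 3.03% and 2.67% of all genes compared. The median was -0.47, beside -0.03 for all genes compared. RSPO3, a secreted ligand of LGR4, was at 11.1, 2.86 and 7.58 FPKM in Scr, CD24 KO and RCC2 KO, a log2 difference of -1.64 for CD24 KO minus Scr. It was the only R-spondin at or above 1 FPKM in any column. ROR1, a receptor tyrosine kinase that binds WNT5A, was at 15.1, 6.41 and 21.7 FPKM, with log2 differences of -1.12 and 0.50 against Scr. GPC4, a surface proteoglycan, had 4.80 FPKM in CD24 KO and was listed at 0 in Scr and RCC2 KO, so no fold is given. It passed the minimum only through CD24 KO, so it had to be higher there. RYK was the most abundant of this list, between 53.0 and 57.3 FPKM. For RCC2 KO minus Scr none of the 7 differed by at least 2-fold, and the median was -0.10.

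PORCN acts on Wnt proteins, whose own genes were mostly low. Of 20 genes (19 WNT genes and WLS, the carrier that takes Wnt proteins to the surface) 5 were compared, and their median log2 difference was 0.48 for CD24 KO minus Scr. WNT5A and WNT5B passed the minimum only through CD24 KO, so they had to be higher there, and the median over the 18 genes above 0 in any column was 0.22. WNT7B alone was at least 2-fold higher, beside 2.67% of all genes compared. It was at 9.68, 20.8 and 16.3 FPKM in Scr, CD24 KO and RCC2 KO, with a log2 difference of 1.03. WLS was the most abundant, at 16.9, 22.9 and 22.1 FPKM. In RCC2 KO minus Scr 3 of the 5 were higher and 2 lower, none by 2-fold, and the median was 0.36. Over the same 18 genes this median was -0.02, so its sign depended on the filter.

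**Figure D5:**
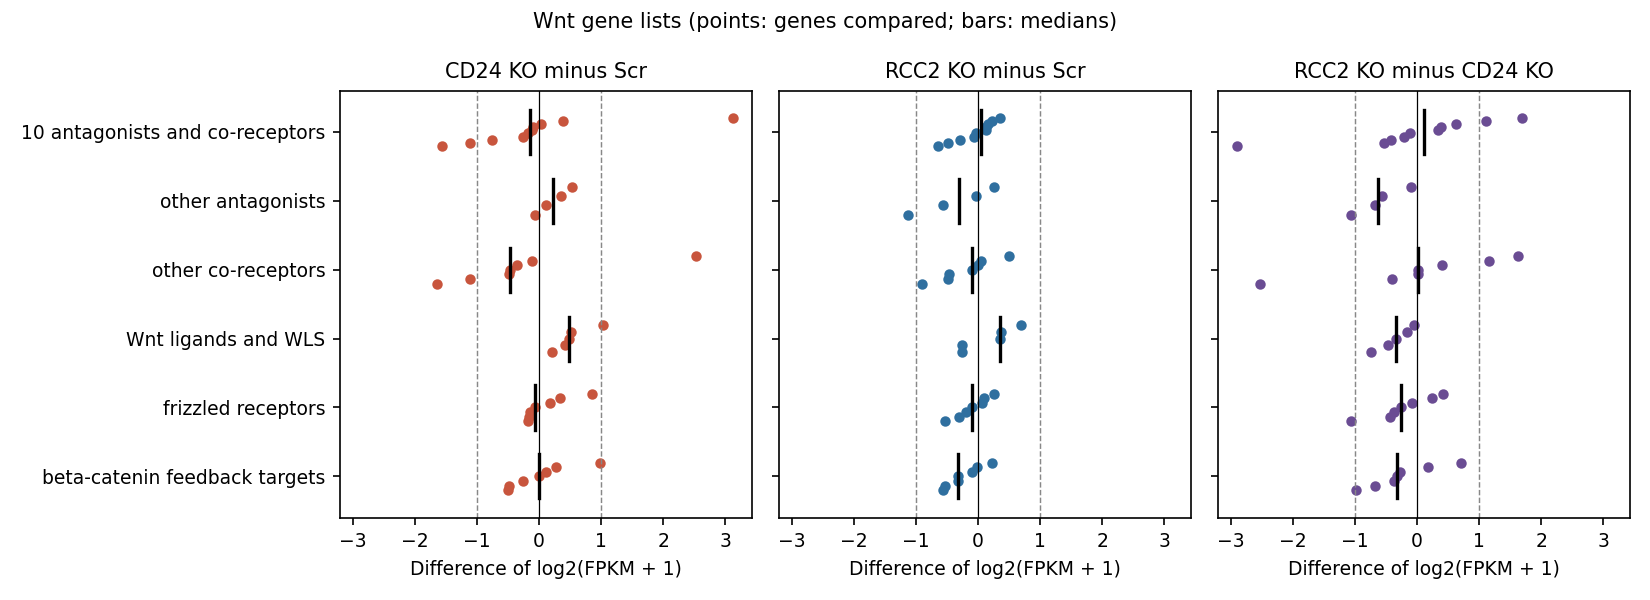
Differences of log2(FPKM + 1) for the genes compared in 6 lists (points), with the median of each list (bar), in the 3 comparisons. In the co-receptor row RSPO3 and ROR1 lie beyond the lower 2-fold line for CD24 KO minus Scr (-1.64 and -1.12), and DKKL1 does so among the antagonists for RCC2 KO minus Scr (-1.12).

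In the deposited coordinates, read as hg19, the 10 genes lie at separate positions on 7 chromosomes. DKK1 lies on chromosome 10 (54074041 to 54077417), LRP6 on chromosome 12 (12268961 to 12419811), RNF43 on chromosome 17 (56378588 to 56494943, a stretch merged with its neighbors), SFRP1 on chromosome 8 (41119476 to 41166990) and PORCN on chromosome X (48367347 to 48379202). Chromosome 11 holds DKK3 (11984543 to 12030917), LGR4 (27387508 to 27503980) and LRP5 (68080077 to 68216743). Chromosome 22 holds ZNRF3 (29279755 to 29453476) and KREMEN1 (29469066 to 29564321), which are neighbors there. GENCODE annotates all 10 as protein-coding genes on the same chromosomes. The neighbors ZNRF3 and KREMEN1 lay on opposite sides of 0 in RCC2 KO minus Scr, at 0.15 and -0.65.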

How the data were processed

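The submitters' processing notes name HISAT, StringTie, Cufflinks and GATK without roles or versions. How they were used, and the genome build, are not given in the sources used here. The authors deposited 1 table of FPKM values with 3 columns, 1 per condition. It gives no values for single libraries of a condition, and the RCC2 KO column may hold 1 library or both. Total RNA is named as input for a TruSeq RNA kit in the labels, whereas the methods name a stranded mRNA kit. Only 15.8% of the 24864 symbols with a single GENCODE 29 entry overlapped it on GRCh38, so coordinates were read as hg19, a build that no source names.

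Genes with at least 1 FPKM in at least 1 column were compared as log2(FPKM + 1), and "at least 2-fold" took the place of a test. Ratios of RCC2 KO to Scr in 2277 genes under 0.3 FPKM in both showed no common step (the commonest ratio held for 60 genes), so no depth was derived. The 10 genes and all lists, which were written from memory, were chosen with earlier results of these data known. Named genes were the 10, CD24, RCC2, other listed genes compared and past 2-fold, the most abundant of each list and the marker genes, some of which are not reported here. Promoter sequences came from RefSeq and were read for 5 of the 10 genes. SFRP1 was not among these, so nothing is said about its promoter. The calculations were tested on simulated data. Python 3.11.15, NumPy 2.4.6, pandas 2.3.3 and matplotlib 3.10.9 were used.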

Additional observations from a re-analysis of the deposited data

How the results depend on the processing

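Alternatives were no filter, at least 1 FPKM in every column, pseudocounts of 0.1 and 5, quantile normalization, median centring and a 1.5-fold minimum. The sign of all log2 differences of the 10 genes held under each of these, except PORCN in RCC2 KO minus Scr, at 0.0079 after quantile normalization. With at least 1 FPKM in every column SFRP1 dropped out of the comparison, so 0 genes were at least 2-fold higher in CD24 KO than in Scr and 0 lower in RCC2 KO than in CD24 KO, and the median of RCC2 KO minus CD24 KO was 0.33 over 9 genes. With a pseudocount of 5, LRP5 was at -0.93, so that 1 gene (DKK1) was at least 2-fold lower in CD24 KO than in Scr, and RNF43 was at 0.49 in RCC2 KO minus CD24 KO, so that 1 gene (DKK1) was at least 2-fold higher there. With a pseudocount of 0.1, RNF43 was at -1.15 in CD24 KO minus Scr, past the 2-fold minimum. At a 1.5-fold minimum 1 gene, KREMEN1, was lower in RCC2 KO than in Scr. No paired analysis was possible because the table holds 1 value per condition, and no library could be left out for the same reason. A gene at a few FPKM cannot be read to better precision than its unknown depth.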

Other observations

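Frizzled receptors and target genes of β-catenin were read beside the inhibitors. Of 10 frizzled genes 7 were compared. Their median log2 difference was -0.06 for CD24 KO minus Scr and -0.10 for RCC2 KO minus Scr, with none past 2-fold on this scale. Where each column had to reach 1 FPKM the first of these medians was 0.18, so its sign depended on the filter. FZD6 was by far the most abundant, at 48.9, 43.6 and 58.8 FPKM in Scr, CD24 KO and RCC2 KO. FZD7 was at 1.53, 3.60 and 1.21 FPKM, with log2 differences of 0.86 for CD24 KO minus Scr and -1.06 for RCC2 KO minus CD24 KO. Of 13 feedback and target genes of β-catenin (LGR5, NOTUM and APCDD1 also belong to the lists above), 7 were compared. None differed by at least 2-fold in any of the 3 comparisons on the log2(FPKM + 1) scale, which understates differences of low values. BAMBI came closest, at 1.35, 3.63 and 1.33 FPKM in Scr, CD24 KO and RCC2 KO. Its log2 differences were 0.98 for CD24 KO minus Scr and -0.99 for RCC2 KO minus CD24 KO. The median of the 7 genes was 0.00 (0.0038 before rounding) for CD24 KO minus Scr and -0.32 for RCC2 KO minus Scr, where 6 of 7 were lower and 1 higher. The latter median was -0.17 without a filter, -0.10 where each column had to reach 1 FPKM and -0.11 with a pseudocount of 5. In CD24 KO minus Scr the sign of this median depended on the settings, since it was -0.16 without a filter, -0.12 after quantile normalization and -0.26 where each column had to reach 1 FPKM. AXIN2, itself both a target and an inhibitor of the pathway and chosen here after its values were seen, was at 1.27, 1.27 and 0.819 FPKM in Scr, CD24 KO and RCC2 KO. The most abundant target was CCND1, at 154, 110 and 181 FPKM.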
